A study of Sus scrofa with 28 samples.

Results

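Eukaryotic translation initiation factors bring the ribosome, the initiator tRNA and the capped mRNA together at the start codon, and genes with symbols beginning EIF encode most of them. The factor eIF2 carries the initiator tRNA with GTP, eIF3 is the large scaffold on the small ribosomal subunit, and eIF4E, eIF4G and eIF4A form the cap-binding complex eIF4F. Kinases that phosphorylate eIF2 under amino acid shortage, viral infection or misfolded protein slow this step, and in liver, an organ that exports much protein, initiation also follows feeding through the eIF4E-binding proteins. The factors were chosen by symbol among the protein-coding RefSeq genes of the pig build Sscrofa11.1. Of 52 EIF symbols 49 were protein-coding, and 47 of these lay on the 19 chromosomes of the peak list, out of 16315 protein-coding genes with a symbol. EIF1AY, on chromosome Y, and EIF5, on unplaced sequence, could not be looked up in the list.

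The data are ATAC-seq peak lists, in which a transposase marks open chromatin, from liver of female Zlotnicka White pigs aged 180 days and slaughtered at 100 ± 2 kg. All animals shared breed and keeping. There were 4 groups of 7 libraries, named high fat 600, low fat 600, high fat 200 and low fat 200. The labels state neither what 600 and 200 mean nor which tissue's fat was measured, and they give the fat groups under a tag called shear force. Each title number occurs once under 600 and once under 200, in the same fat group, which was taken to mark 1 animal although the labels name none. All 600 libraries carry one lane tag and all 200 libraries another, so label and lane cannot be told apart. The livers were digested and strained into mixed cell suspensions, in which fewer cells with an open site and less opening per cell cannot be told apart.

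The lists held between 39 and 17652 peaks per library (median 1231, 84192 in all), with no read counts, so sequencing depth is unknown. A gene was called listed in a library when a peak centre lay within 1000 bp of either annotated end of the gene. An unlisted gene may be closed, thinly sequenced or removed before the list was made. Hepatocyte markers were listed in 11 of 13 cases, with HPX in 11 libraries, NR5A2 in 10 and ALB in 7, while the defining regulator HNF4A was in none. Of markers of other cells, 1 of 8 macrophage genes (CD14, in 6 libraries), 3 of 8 lymphocyte genes (1 library each), 1 of 4 erythroid genes and none of the 7 endothelial and stellate or 5 cholangiocyte genes were listed. Their part in the results below was not tested.

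Translation initiation factor genes were listed more often than the general gene. At least 1 library listed 41 of the 47 (87.2%), against 52.9% of all protein-coding genes with a symbol and 51.4% of genes of any type with a symbol. At least 3 libraries listed 28 members (59.6%), against 33.4% of all genes, and at least 10 libraries listed 11 (23.4%), against 8.98%. With genes of any type as background the last 2 shares were 32.4% and 8.62%. The median member was listed in 4 libraries and the median gene in 1. These are descriptions with no test. The 47 genes were about as long as others, with a median of 21884 bp against 25592 bp.

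Libraries with at least 1000 peaks, chosen by list size alone, numbered 15. In all 15 the share of EIF genes listed exceeded the share of all symbol genes, by a ratio of 1.42 to 3.84 with a median of 1.86. The 13 shorter lists together held 8 member listings among 1581 of symbol genes, a pooled ratio of 1.76 against 1.85 in the longer lists, and 3 of the 13 listed any member. High fat 200 replicate 7 listed 32 of the 47, replicate 1 of the same group 30, and low fat 200 replicate 1 listed 26. The 10 libraries that listed no member had at most 94 listed genes each. The 6 libraries with most peaks gave 58.1% of the 236 member listings and 61.0% of the listings of all symbol genes. The number of members in a library moved with the size of its list.

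**Figure D1:**
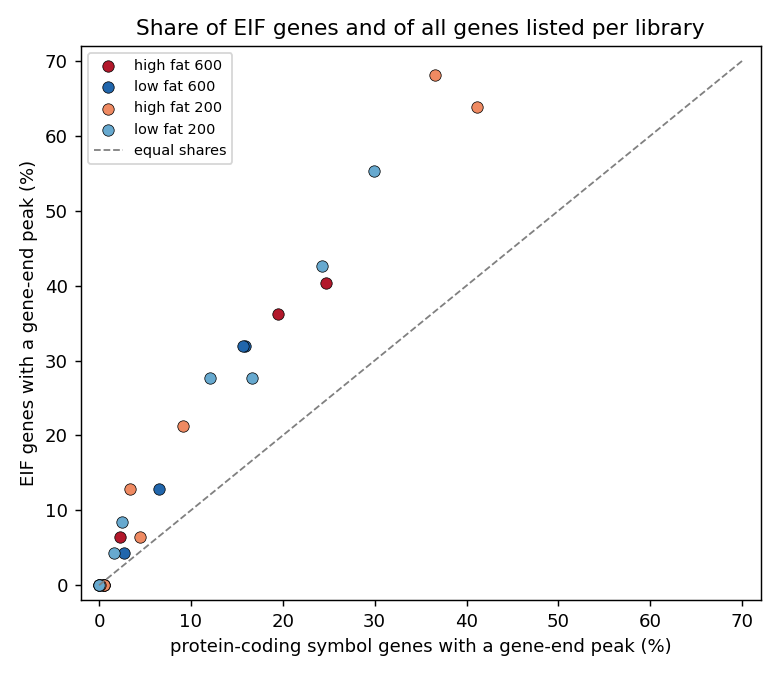
Percent of the 47 EIF genes with a gene-end peak (vertical) against percent of all protein-coding symbol genes with one (horizontal), one point per library, coloured by group, with the line of equal shares. All 15 libraries with at least 1000 peaks lie above the line, and 10 of the other 13 lie at 0 on the vertical axis.

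The map of listings by gene shows the same few libraries filled in each group and large differences between genes of one complex.

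**Figure D2:**
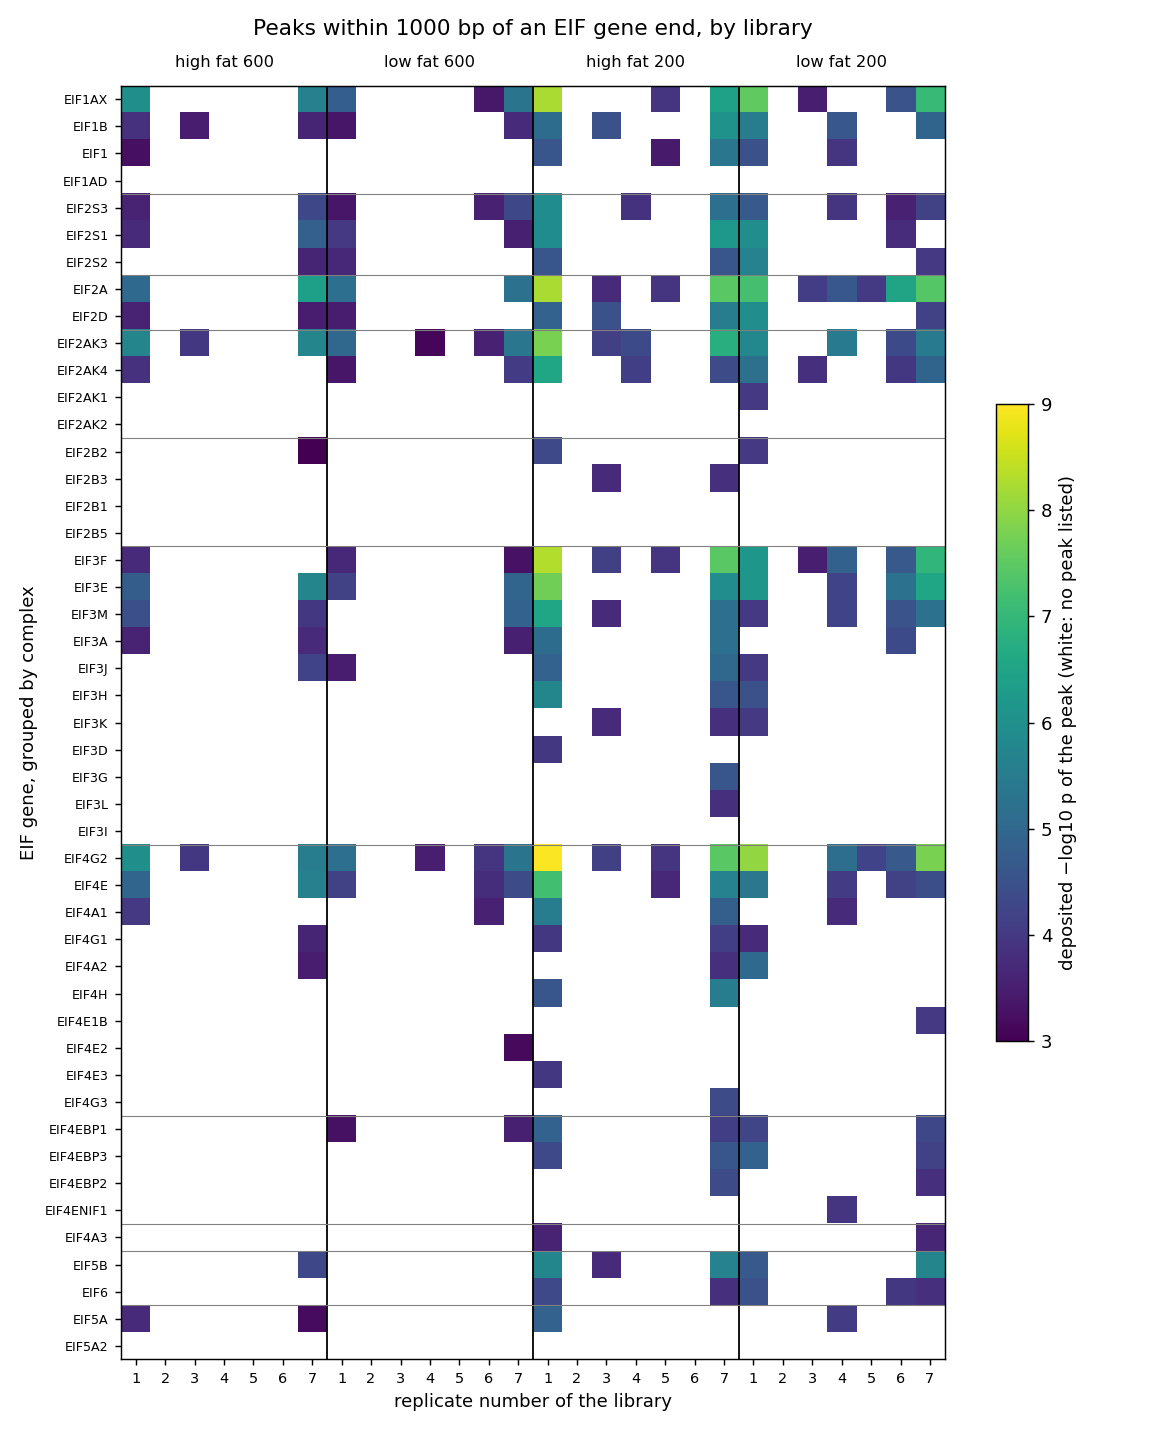
Deposited −log10 p of the gene-end peak for each EIF gene (rows, grouped by complex) in each of the 28 libraries (columns, by group and replicate number), with white for no listed peak. Replicates 1 and 7 of every group hold most of the listings, and 6 genes have none.

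The gene listed most often was EIF4G2, whose product resembles the eIF4G scaffold but lacks the eIF4E-binding part and serves cap-independent initiation. Its peaks lay on chromosome 2 from 48665585 to 48667308, at the lower-coordinate end of the gene (48666590 to 48678656). It was listed in 16 libraries, and 1.02% of all genes with a symbol were listed in as many. The deposited −log10 p was 5.98, 3.97 and 5.54 in high fat 600 libraries, 5.18, 3.50, 3.93 and 5.31 in low fat 600 libraries, 8.97, 4.15, 3.93 and 7.47 in high fat 200 libraries and 8.02, 5.17, 4.21, 4.68 and 7.79 in low fat 200 libraries. High and low fat values overlapped under both labels, and the highest value came from the library with most peaks. Within a library its peak stood at a median percentile of 88.4 among the peaks at ends of symbol genes.

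EIF4G2 was grouped here by symbol with the cap-binding complex eIF4F and its helpers. The other members of that group were listed far less evenly. EIF4E, the cap-binding protein itself, was listed in 12 libraries at its lower-coordinate end (chromosome 8, 121408596 to 121411146). Its −log10 p was 4.96 and 5.61 in high fat 600 libraries, 4.15, 3.79 and 4.38 in low fat 600 libraries, 7.18, 3.70 and 5.66 in high fat 200 libraries and 5.38, 4.07, 4.18 and 4.44 in low fat 200 libraries. All 10 members of the group were listed somewhere, but the median member was listed in 2.5 libraries. The helicase gene EIF4A1 was listed in 5 libraries and its close relative EIF4A2 in 3. The scaffold gene EIF4G1 was in 4 libraries and EIF4G3 in 1. EIF4H, a helper of the helicase, was in 2, high fat 200 replicates 1 and 7, which have the longest lists of all. EIF4E1B, EIF4E2 and EIF4E3, relatives of EIF4E, were in 1 each. Of these, EIF4E2 was the only member listed in a 600 library (low fat replicate 7, −log10 p 3.16) and in no 200 library. EIF4A3, a related helicase of the exon junction complex, was in 2 libraries.

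All 4 genes of proteins that bind and hold back or carry eIF4E were listed, with a median of 3 libraries against 1 for all symbol genes. EIF4EBP1 was in 6, with 0 of 7 high fat 600, 2 of 7 low fat 600, 2 of 7 high fat 200 and 2 of 7 low fat 200 libraries. EIF4EBP3 was in 4 and EIF4EBP2 in 2, all in the 200 set. EIF4ENIF1, which carries eIF4E into the nucleus, was in 1.

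All genes of the eIF2 trimer were listed repeatedly. EIF2S3, the gamma subunit that binds GTP and tRNA, was in 12 libraries, EIF2S1, the alpha subunit that the kinases phosphorylate, in 8, and EIF2S2, the beta subunit, in 6. EIF2S1 had −log10 p of 3.72 and 4.84 in high fat 600 libraries, 4.00 and 3.53 in low fat 600 libraries, 5.92 and 6.20 in high fat 200 libraries and 5.93 and 3.77 in low fat 200 libraries. The high and low fat values overlapped under the 200 label, and both groups listed the gene in 2 of 7 libraries under each label.

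EIF2S3 also held a second site inside the gene, on chromosome X from 20146058 to 20147363, with a median of 16938 bp from the lower-coordinate end. That site was listed in 13 libraries: 2 high fat 600, 4 low fat 600, 3 high fat 200 and 4 low fat 200. Its −log10 p was 3.32 at the lowest, 4.88 at the median and 7.18 at the highest, against 3.37, 4.03 and 5.93 at the gene end. A site inside the gene beyond the window was otherwise rare among the factors, present in 4 of 47 (8.51%) against 33.6% of all symbol genes. EIF2S3 was the single member with such peaks in 10 or more libraries (2.13%, against 1.84%). The RefSeq table places no other gene over it.

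Of 2 further factors that bring tRNA to the ribosome, EIF2A was listed in 14 libraries and EIF2D in 8. EIF2A, which can place initiator tRNA without GTP, had the strongest member peak of the 600 set. Its −log10 p was 5.04 and 6.40 in high fat 600 libraries, 5.18 and 5.25 in low fat 600 libraries, 8.23, 3.74, 3.93 and 7.47 in high fat 200 libraries and 7.23, 4.09, 4.62, 4.01, 6.51 and 7.43 in low fat 200 libraries. The peaks lay on chromosome 13 from 90760280 to 90762191, where an end of SERP1, an endoplasmic reticulum stress protein, was also within the window, so they cannot be given to EIF2A alone.

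The eIF2 kinases divided into a pair of often listed and a pair of rarely listed genes. EIF2AK3, the kinase PERK of the endoplasmic reticulum, was listed in 15 libraries (chromosome 3, 57423089 to 57424613). Its −log10 p was 5.73, 3.97 and 5.72 in high fat 600 libraries, 5.03, 3.11, 3.56 and 5.36 in low fat 600 libraries, 7.80, 4.15, 4.34 and 6.75 in high fat 200 libraries and 5.81, 5.46, 4.36 and 5.46 in low fat 200 libraries. The high and low fat values overlapped under both labels. EIF2AK4, the amino acid sensor GCN2, was in 10 libraries. In all 10 an end of GPR176 was also within the window, so these peaks cannot be given to EIF2AK4 alone. EIF2AK1, the heme-regulated kinase, was in 1 (low fat 200 replicate 1), and EIF2AK2, the double-stranded RNA sensor PKR, in none. The nearest peak to an end of EIF2AK2 in any library was 15230 bp away.

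The protein-coding genes of eIF2B, the exchange factor that recharges eIF2 with GTP, were at the level of the general gene. EIF2B2 was listed in 3 libraries, EIF2B3 in 2, and EIF2B1 and EIF2B5 in none. Their median of 1 library equalled that of all symbol genes. EIF2B4, left out because the RefSeq table gives it the biotype lncRNA, was listed in 7 libraries.

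Among factors of start codon scanning, EIF1AX was listed in 12 libraries, EIF1B in 11 and EIF1 in 6. EIF1AD, grouped with them by symbol and not as an established scanning factor, was in none. EIF1AX, on chromosome X, had −log10 p of 5.98 and 5.61 in high fat 600 libraries, 4.8, 3.39 and 5.31 in low fat 600 libraries, 8.23, 3.93 and 6.43 in high fat 200 libraries and 7.54, 3.50, 4.52 and 7.07 in low fat 200 libraries. EIF1 and EIF1B encode closely related proteins. EIF1B peaks had their centres 224.5 to 421.0 bp outside its lower-coordinate end in all 11 libraries. Those of EIF1 had theirs from 173.0 bp outside to 683.0 bp inside its higher-coordinate end.

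The eIF3 subunits ranged from 0 to 12 libraries. EIF3F was listed in 12 libraries and EIF3E and EIF3M in 10 each, whereas EIF3D, EIF3G and EIF3L were in 1 each and EIF3I in none. EIF3A, the largest subunit, was in 6, EIF3J in 5, and EIF3H and EIF3K in 3 each. EIF3F had −log10 p of 3.72 in the high fat 600 library that listed it, 3.66 and 3.29 in low fat 600 libraries, 8.31, 4.15, 3.93 and 7.47 in high fat 200 libraries and 6.17, 3.50, 4.85, 4.68 and 6.96 in low fat 200 libraries. EIF3E had 4.77 and 5.72 in high fat 600 libraries, 4.15 and 4.95 in low fat 600 libraries, 7.70 and 5.94 in high fat 200 libraries and 6.17, 4.22, 5.23 and 6.54 in low fat 200 libraries. The high and low fat values of both genes overlapped under each label where at least 2 libraries a group listed them.

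Of the late-acting factors, EIF5B, the GTPase that joins the ribosomal subunits, was listed in 6 libraries and EIF6, which keeps free large subunits apart from small ones, in 5. EIF5A, the hypusine-bearing factor that helps peptide bond formation, was in 4, and its relative EIF5A2 in none. EIF6 was listed in 0 of 14 libraries of the 600 set and 5 of 14 of the 200 set. Its peaks lay 517.0 to 747.5 bp outside the lower-coordinate end, and an end of MMP24 was also within the window of 3 of the 5.

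**Figure D3:**
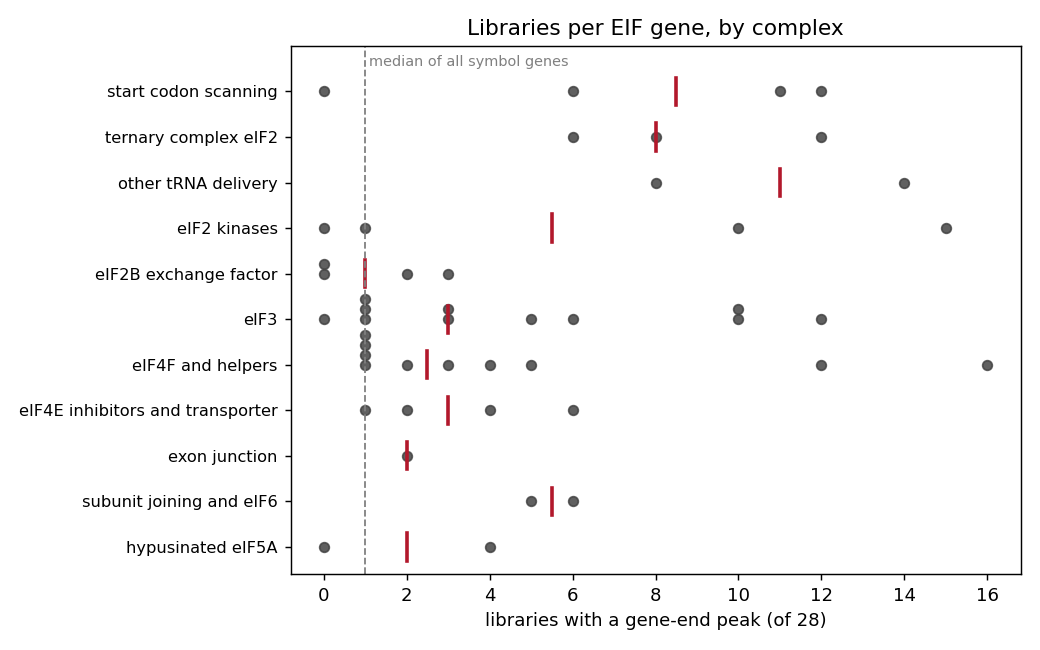
Number of the 28 libraries with a gene-end peak for each EIF gene (points), by complex, with the median of each complex (red bar) and of all protein-coding symbol genes (dashed line, 1 library). Medians run from 1 library for eIF2B, without EIF2B4, to 11 for the pair EIF2A and EIF2D. The groups of eIF2 kinases, eIF3 and eIF4F each hold a gene in 10 or more libraries and another in 3 or fewer. Start codon scanning does so only through EIF1AD, placed there by symbol.

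Peaks at often listed members ranked higher within their libraries. Listing and strength both come from the same peak calls, so the one is no independent test of the other. Whether this order is particular to the members was not tested. All 8 members of 2 to 3 libraries were in high fat 200 replicate 1 or 7, the longest lists, as were 5 of the 9 of a single library. Members listed in 8 to 16 libraries had a median −log10 p of 4.68, at a median percentile of 65.5 among gene-end peaks of the same library. Single members of this class ran from a median percentile of 35.1 (EIF2D) to 88.4 (EIF4G2). The percentile was 27 for members of 4 to 6 libraries, 15 for those of 2 to 3 and 13.4 for those of a single library. Over all members it was 46.4, against 50.5 for peaks at all symbol genes, for which values by number of libraries were not computed. Which member had the strongest peak differed between libraries. In high fat 200 replicate 1 EIF4G2 led with 8.97, followed by EIF3F with 8.31, and in high fat 200 replicate 7 EIF4G2, EIF2A and EIF3F each had 7.47. In high fat 600 replicate 7 EIF2A had 6.40 and EIF4G2 5.54. In high fat 200 replicate 3 EIF1B and EIF2D each had 4.49 and EIF4G2 4.15. EIF2S3, listed as often as EIF3F, reached 5.92 in high fat 200 replicate 1 and 5.18 in high fat 200 replicate 7.

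**Figure D4:**
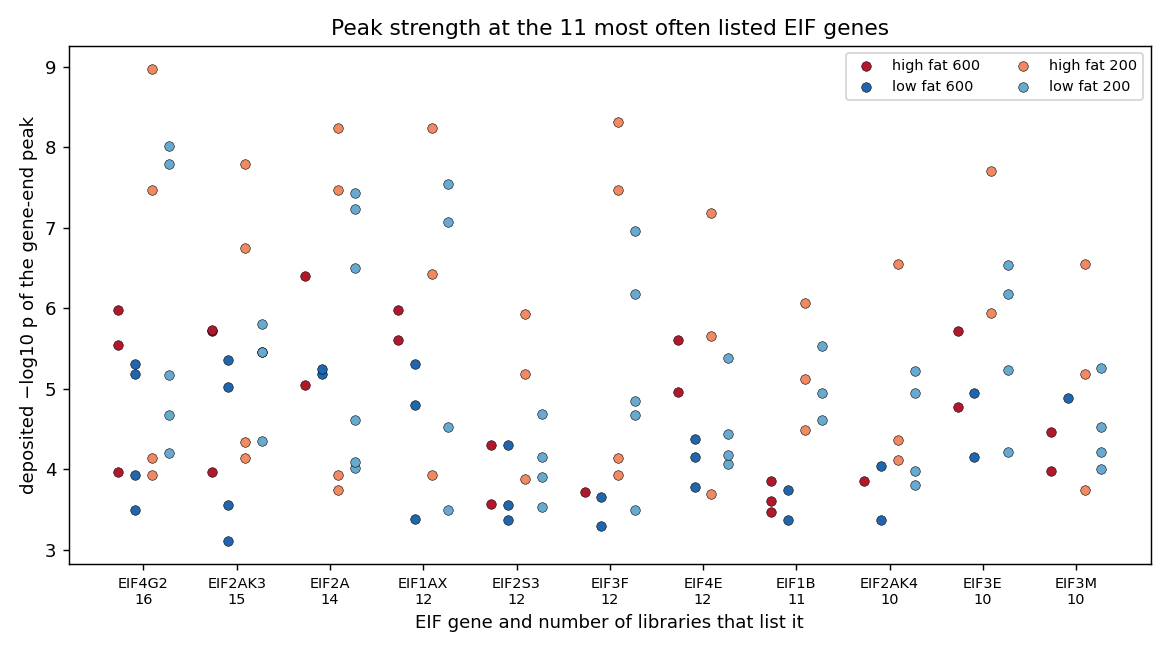
Deposited −log10 p of the gene-end peak in every library that lists it, for the 11 EIF genes listed in 10 or more libraries, coloured by group. Within a gene the 200 libraries reach the highest values, up to 8.97 at EIF4G2, and high and low fat points of EIF4G2 and EIF2AK3 overlap under both labels.

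Most members carried peaks at one end only. This held for 38 of the 41 listed members (92.7%, against 94.3% of all listed symbol genes), at the lower-coordinate end in 22 and the higher-coordinate end in 16. EIF2B2, EIF2B3 and EIF4G1 had peaks at both ends. The gene table gives no strand, so which end is the start of transcription was not determined here. The median distance of the peak centre from the gene end was 118 bp for members and 146.5 bp for all symbol genes, and 83.5% of member peaks spanned the annotated end itself, against 83.4%. For 22 members every peak spanned it. Peaks of EIF3E (269.0 to 524.5 bp) and EIF5A (355.0 to 704.0 bp) were centred inside the gene throughout. Another gene's end lay beside a peak of 13 listed members (31.7%, against 35.2%). Besides SERP1 and MMP24 these included ATP6V1D at EIF2S1, KLHL15 at EIF2S3, GPR176 at EIF2AK4, TXNDC9 at EIF5B and SENP3 at EIF4A1. Peaks beside another gene's end cannot be given to the member alone.

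**Figure D5:**
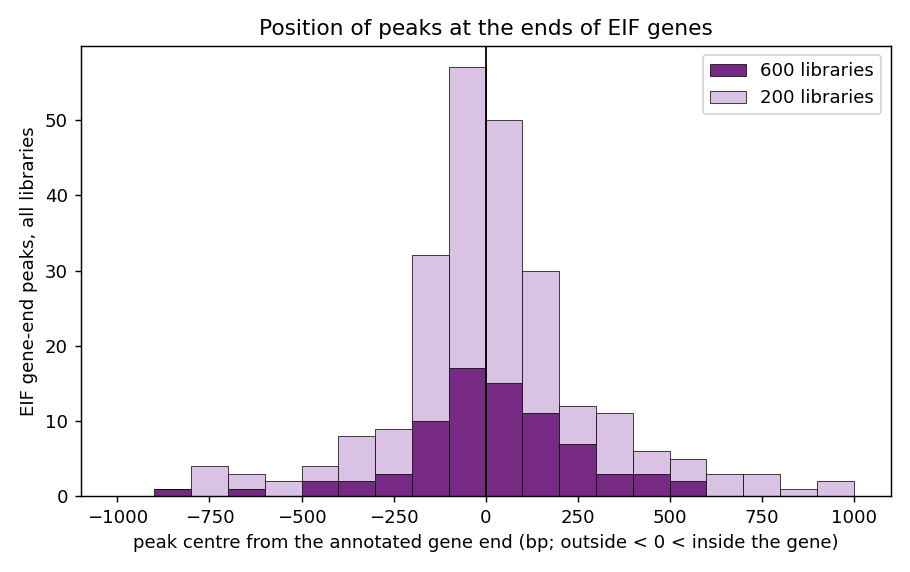
Number of EIF gene-end peaks by distance of the peak centre from the annotated gene end in bins of 100 bp, negative outside and positive inside the gene, stacked for 600 and 200 libraries. The peaks gather at the end itself, with a median distance of 118 bp.

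Whether fat content went with open chromatin at these genes was tested gene by gene over all symbol genes listed in at least 3 libraries, and no gene passed. In the 600 libraries 0 of 2588 genes passed (0.0% called, Fisher's exact test with Benjamini-Hochberg adjustment, 7 against 7 libraries), with 0 genes at an unadjusted p under 0.05. None of the 14 members tested passed, and all 14 had p = 1.0 (Fisher's exact test). In the 200 libraries 0 of 4948 genes passed (0.0% called), again with 0 at an unadjusted p under 0.05 by the same test, and none of 25 members passed. Of these 25, 9 were listed in more high than low fat libraries, 10 in fewer and 6 in equal numbers. Over all genes tested 27.4% were in more and 44.4% in fewer. The member with the smallest p was EIF2A, in 4 of 7 high fat and 6 of 7 low fat libraries (exact p = 0.559, adjusted p = 1.0). EIF3E followed with 2 of 7 high fat and 4 of 7 low fat libraries (exact p = 0.592, adjusted p = 1.0). The design left little room for a call on a member. In the 600 set 3 high fat and 4 low fat libraries listed any member, so the most extreme split, 0 of 7 against 4 of 7, has an exact p = 0.0699, and no member could have reached 0.05. In the 200 set, with 5 high fat and 6 low fat libraries listing any, the smallest unadjusted exact p open to a member was 0.00466. For any gene at 7 against 7 libraries the smallest was 0.000583 (Fisher's exact test). Over 4948 genes such values fall under 0.05 after adjustment only when many genes share them. The absence of calls therefore says little about fat content. With each title number taken as 1 animal and counted once, as listed under either label, 0 of 5185 genes passed (0.0% called, 0 at an unadjusted p under 0.05, Fisher's exact test), and none of 27 members did.

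In any library, 30 members were listed in both high and low fat libraries, 7 only in high fat and 4 only in low fat ones. All 7 were listed in high fat 200 replicate 1 or 7, the libraries with most peaks (17652 and 11943). The part of list length in this split was not tested. Over all listed symbol genes the shares were 65.8%, 29.9% and 4.27%. The 7 libraries of a group listed 39 member-library pairs in high fat 600, 38 in low fat 600, 81 in high fat 200 and 78 in low fat 200. Members made up 0.502% and 0.558% of the listings of all symbol genes in high and low fat 600 libraries and 0.521% and 0.548% in high and low fat 200 libraries, against 0.288% of the genes themselves. Per library the number of members was 0 at the lowest, 0 at the median and 19 at the highest in high fat 600, and 0, 2 and 15 in low fat 600. It was 0, 6 and 32 in high fat 200 and 0, 13 and 26 in low fat 200. The groups overlapped over nearly their whole range.

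The 600 and 200 libraries were then compared, 14 against 14, as separate libraries and without regard to shared title numbers. No gene of 5454 passed (0.0% called, Fisher's exact test with Benjamini-Hochberg adjustment), while 225 had an unadjusted p under 0.05, all of them listed less often in the 600 libraries. Of the 28 members tested, 25 were listed in fewer 600 than 200 libraries, 3 (EIF2S1, EIF3A and EIF5A) in equal numbers and 0 in more. Over all genes 84.1% were in fewer. The member with the smallest p was EIF6, in 0 of 14 libraries of the 600 set and 5 of 14 of the 200 set (exact p = 0.0407, adjusted p = 0.832). EIF3F was in 3 of 14 of the 600 set and 9 of 14 of the 200 set (exact p = 0.0542, adjusted p = 0.832), and EIF2A in 4 of 14 and 10 of 14 (exact p = 0.057, adjusted p = 0.832). In sum 25 members (53.2%) were listed in a 600 library and 40 (85.1%) in a 200 library, against 29.4% and 51.9% of all symbol genes. Of the listed members 24 were in both, 1 only in 600 and 16 only in 200 libraries. Over all listed symbol genes the shares were 53.7%, 1.89% and 44.5%. Lists of the 600 set were shorter in all, with 14571 listings of symbol genes against 29803, and the part of list length in these counts was not tested. Members made up 0.528% of the listings of the 600 set and 0.534% of those of the 200 set. Member peaks were wider in the 600 libraries, with a median of 1036 bp against 542 bp, as were those of all symbol genes (1106 bp against 587 bp). The median −log10 p of member peaks was 3.86 in the 600 set and 4.49 in the 200 set, against 4.0 and 4.62 for peaks at all symbol genes.

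Most member listings of a 600 library recurred in the 200 library of the same title number. This was so for 71 of 77 (92.2%), against 89.7% of the listings of all symbol genes. Recurrence in 200 libraries of other title numbers was not computed, so the share does not show that a title number marks 1 animal. High fat replicate 1 had 17 members in its 600 library, all of them among the 30 of its 200 library, and low fat replicate 1 had 15, all among 26. The 6 exceptions came from high fat replicate 7 (2 members), low fat replicate 6 (1) and low fat replicate 7 (3). Whether high minus low fat differed between 600 and 200 was asked by permuting fat groups among the 14 title numbers (exact), and 0 of 5454 genes passed (0.0% called), with 4 at an unadjusted p under 0.05. None of 28 members passed. EIF3E and EIF4EBP1 had the smallest p among members (exact permutation p = 0.462 each, adjusted p = 1.0). The mean 600 minus 200 presence in high fat minus that in low fat numbers was 0.286 for EIF3E, as for EIF5A, EIF3M and EIF2A, and −0.286 for EIF4EBP1. This test also takes a title number as 1 animal.

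Genes that work beside the initiation factors were listed unevenly too, again with no test and against 52.9% of all genes. Of 19 genes taken as partners of initiation 18 were listed, the highest share of these lists (94.7%). They included EIPR1, in 5 libraries, which is not an established partner. PAIP2B, an inhibitor of poly(A)-binding protein, and BZW2, an eIF5 mimic, were in 14 libraries each, LARP1 and PAIP1 in 11 each, and PABPC1, the poly(A)-binding protein, in 1. Of 11 elongation and termination genes 7 were listed, with EEF1A1 in 17 libraries, ETF1 and ABCE1 in 12 each and EEF2 in none. Of 11 genes of the integrated stress response, which the eIF2 kinases start, 6 were listed (54.5%). DNAJC3, a chaperone that restrains PERK, led with 18 libraries, before DDIT3 with 7 and ATF4 with 5, while PPP1R15A, PPP1R15B and ATF3 had none. Of 12 genes of mTOR and MNK control, which act on the eIF4E-binding proteins and eIF4E, 9 were listed and none in 10 or more libraries. RPS6KB1 was in 6 and MTOR in 5. DHPS, the first enzyme of hypusine synthesis, was in 8 libraries and DOHH, the second, in none.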

How the data were processed

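The deposited table holds one ATAC-seq peak list per library. Genrich, Picard, SAMtools, BWA, FastQC and the build Sscrofa11.1 are listed in the submitters' processing notes. Their versions, roles, the treatment of reads matching several places and the rule by which peaks were left out are not given in the sources used here. Per the file headers each peak has a position, a summit, a score, a signal value and a p-value column. The deposited signal is at least 400 and was used only to check the score. The deposited score equals 1000 times signal over width, capped, in 100.0% of peaks within 1. The deposited p-value column runs from 2.83 to 7880.9 and is therefore −log10 p, the authors' value per peak, which also carries each library's unknown depth. Starts were taken as 0-based.

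Computed here were gene ends from RefSeq, peak centres within 1000 bp, presence per gene and library, and Fisher's exact or exact permutation tests over all protein-coding symbol genes listed in at least 3 libraries, adjusted by Benjamini-Hochberg with a threshold of 0.05. Tests were tried on simulated lists, in which each gene was drawn at its mean rate in every library. Unequal list lengths were not reproduced, so these trials do not show what the tests could call in these data. Whether libraries of a group come from separate animals is not stated, so p-values measure the spread between libraries. The RefSeq table gives no strand, so start sites were not used, and promoter motifs and protein identities were not analysed here. Members and gene lists were chosen with earlier results of these data known. Named genes were members in 10 or more libraries, up to 10 without a peak, the leading member of each complex, the paralogue pairs and the smallest p-values per comparison; other members were named to account for all of them. Software was scipy 1.17.1, pandas 2.3.3, numpy 2.4.6 and matplotlib 3.10.9 under Python 3.11.15.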

Additional observations from a re-analysis of the deposited data

How the results depend on the processing

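The excess of listed EIF genes kept its direction in every alternative, and the ratio of the member share to the all-gene share ran from 1.3 to 1.93 (1.65 as reported). The count of listed members was 41, and 38 to 41 with any single library left out. It fell to 10 with the top decile of each label's peaks and to 13 with the 1000 strongest peaks of libraries with at least 1000 peaks. The excess over all genes was 34.3 percentage points, between 30.5 and 35.9 without single libraries. It was 8.17 points in the top decile, 12.7 with the 1000 strongest peaks and 20.3 with a window of 5000 bp. With fewer peaks both shares fell, and the ratio was 1.62 in the top decile and 1.84 with the 1000 strongest peaks, against 1.3 with the 5000 bp window. With 2 alternatives chosen after seeing the data, 35 members were listed without the 2 libraries with most peaks and 33 by peaks beside no other gene's end. In that order, members in 10 or more libraries numbered 7 and 8. Keeping the stronger peaks, those over the median of their label, left 3 members in 10 or more libraries.

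Genes called stayed at 0 in all comparisons, single libraries left out included, except for 600 against 200 with wider windows. There 2 genes passed at 2500 bp (GFRAL and PIGG) and 3 at 5000 bp (with PMP22), none a member and all less often listed in the 600 libraries (Fisher's exact test, adjusted). The replicate block, a sign test within shared numbers, gave 0 calls for high against low fat under either label and 0 for 600 against 200. In the last it gave an unadjusted exact p = 0.0312 for EIF2A and for EIF3F. The numbers are not shown to pair samples: across genes, deviations of same-number 600 and 200 libraries correlated with r of −0.0216 to 0.651, over 0.1 in 7 of 14, and 2 matched best with their own number. For high and low fat libraries of the same replicate number r was over 0.1 in 6 of 7 in the 600 set (median 0.304) and 2 of 7 in the 200 set (median 0.0515). Windows at start sites only were not run, since no strand was given. Depth is unknown, and libraries with few peaks cannot show absence.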

Other observations

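EIF2B4, EIF4B and EIF3B carry symbols of initiation factors but the biotype lncRNA in the RefSeq table, so they stood outside the 47 genes. EIF2B4, the gene name of another subunit of the exchange factor eIF2B, had a gene-end peak in 7 libraries (chromosome 3, 111781661 to 111786377). EIF4B, the name of a helper of the eIF4A helicase, had one in 3 libraries, and EIF3B, the name of a core eIF3 subunit, in 2. EIF2B4 was thus listed in more libraries than EIF2B1, EIF2B2, EIF2B3 and EIF2B5, which reached 3 at most. Among the 6 members with no gene-end peak, the nearest peak of any library lay 7430 bp from an end of EIF2B5, 11280 bp from EIF5A2, 22669 bp from EIF2B1, 35804 bp from EIF3I and 49386 bp from EIF1AD.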
